A study of Bos taurus with 96 samples.

Results

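HMGCS1 and SQLE are the genes of a pair of enzymes in cholesterol synthesis, and their expression was followed here through the time-points LP (late pregnancy), EL (early lactation) and ML (mid lactation) in liver and in muscle of 16 Holstein cows. They were taken from the count files by their Ensembl identifiers, ENSBTAG00000011839 for HMGCS1 and ENSBTAG00000005498 for SQLE, and are 2 of the 24616 genes counted. Both were detected in all 96 libraries. Genome coordinates are left out, since no annotation of UMD3.1, the build of the counts, was used here. The cows were 8 with good genetic merit for fertility (Fert+) and 8 with poor genetic merit (Fert-), selected on breeding value for calving interval from different sires and managed together, with first and second parity animals in both groups. Genotype below means this grouping, which rests on breeding value and not on a single allele. Each cow gave a liver biopsy and a semitendinosus muscle biopsy at each of the 3 time-points, so that every library has 5 others from the same animal. The label of each library gives the cow.

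Cholesterol is built in the cytosol and endoplasmic reticulum from acetyl-CoA. HMGCS1 makes an early intermediate of the mevalonate pathway, and SQLE adds oxygen to squalene, the first oxygenation on the way to the sterol ring. In mammals both genes are known targets of SREBP2, a transcription factor that is released when sterols in the endoplasmic reticulum run low, and liver is the organ that makes and exports much of the sterol carried in lipoproteins.

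Libraries held between 14966847 and 26358063 read pairs assigned to genes in liver and between 15279337 and 22018740 in muscle. Expression is given as CPM, which scales the read pairs of a gene to a common library size with TMM factors set over the 48 libraries of a tissue. It has no correction for gene length, so that levels of HMGCS1 and SQLE are not compared with each other. The 8 hepatocyte markers summed to between 74507 and 227351 CPM in liver libraries and to between 0.654 and 177 CPM in muscle libraries, and the skeletal muscle markers (9 identifiers) summed to between 8.85 and 37.3 CPM in liver libraries. The liver EL library of Fert+ cow 3847 stood apart. Its log2 profile over 19976 genes correlated with the median of the other liver EL libraries at r = 0.927, and the next lowest value was 0.978. It was among 13 libraries, 8 of liver and 5 of muscle, that carried counts on 19 genes nearly absent from the others. These 13 are called counting batch B, a name given here from the counts alone. No label gives a batch, and the sources used here do not say what set apart these 13 libraries. They held too few cows of a genotype at any time-point for values within the batch, and results are given with and without them where a call or a direction changed. The batch was uneven between genotypes. Its liver libraries were Fert+ cows 33 and 756 at LP, 33 and 3847 at EL, and 430 and 3847 at ML. The Fert- ones in liver were cow 419 at EL and cow 829 at ML. All 5 in muscle were of the Fert- cows 164 and 419. Genotype and batch are thus partly confounded.

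Both genes were far more abundant in liver than in muscle. HMGCS1 was higher in liver in 16 of 16 cows at every time-point, and the median fold between the tissues of a cow was 26.5 in late pregnancy, 8.12 at EL and 26.6 at ML. The fold ranged from 2.03, at EL, to 83.1, at ML. SQLE had a median fold of 103 at LP, 99.1 at EL and 123 at ML, and was higher in liver in 16 of 16 cows each time. For both genes the lowest liver library was above the highest muscle library, although for HMGCS1 at EL the gap was small, with 34.0 CPM in the lowest liver library and 27.6 CPM in the highest muscle library. CPM was normalised in each tissue separately, and biopsies are bulk tissue, in which fewer cells of a type and less RNA per cell cannot be told apart.

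In liver, HMGCS1 was lowest and most uneven just after calving and rose from EL to ML. At LP its level ran from 89.9 to 728 CPM with a median of 418 CPM over 16 cows. At EL it ran from 34.0 to 746 CPM with a median of 113 CPM, and at ML from 143 to 1227 CPM with a median of 522 CPM. The ranges overlapped at all 3 time-points, and the EL range was the widest, 21.9-fold between the lowest and the highest cow against 8.10-fold at LP and 8.56-fold at ML. The coefficient of variation was 97.8% at EL, 49.6% at LP and 53.8% at ML.

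SQLE, the later enzyme, had the same order of medians with smaller differences. It ran from 87.1 to 379 CPM at LP (median 203 CPM), from 22.5 to 341 CPM at EL (median 108.1 CPM) and from 56.5 to 379 CPM at ML (median 208 CPM). The highest cow was at 379 CPM at both LP and ML and at 341 CPM at EL, while the lowest cow was at 22.5 CPM at EL. The CV of SQLE was largest at EL, with 62.5%, against 42.1% at LP and 44.5% at ML.

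**Figure D1:**
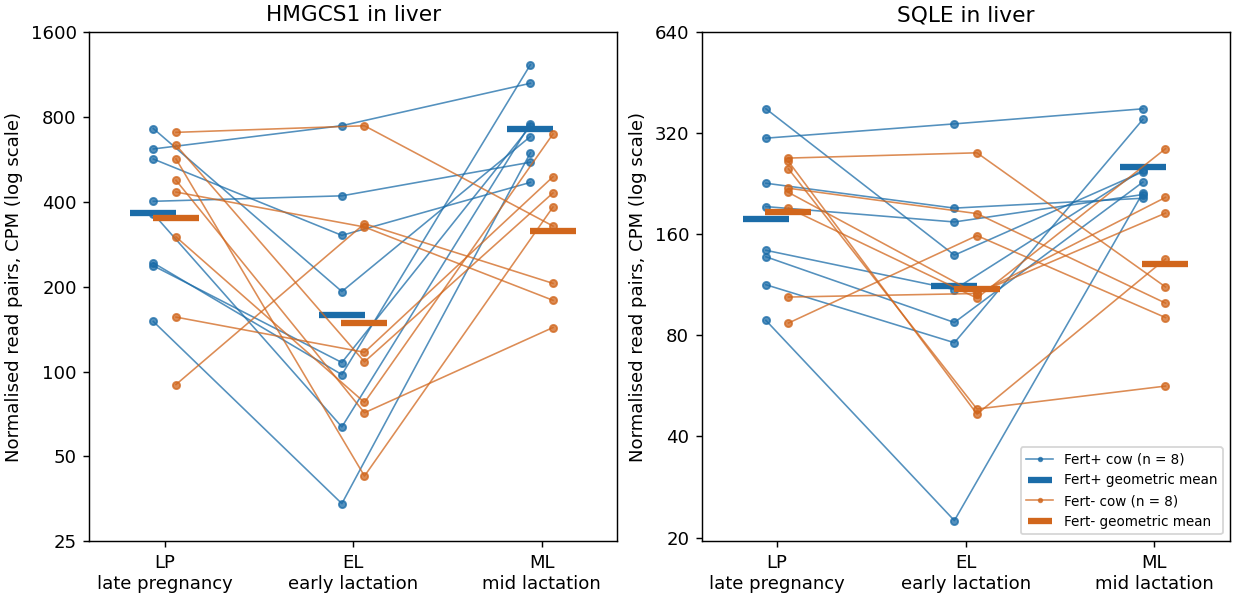
Normalised read pairs of HMGCS1 and SQLE in liver (y axis, CPM, log scale) at LP, EL and ML (x axis). Each line joins the 3 libraries of a cow, 8 Fert+ in blue and 8 Fert- in orange, and bars are geometric means of a genotype. HMGCS1 was lower at EL than at LP in 12 of 16 cows and higher at ML than at EL in 13 of 16.

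Between LP and EL, HMGCS1 was lower in 12 of the 16 cows and SQLE in 12 of 16. The edgeR quasi-likelihood fit over the 48 liver libraries gave a log2 fold change of -0.83 (SE 0.35) for HMGCS1 with an adjusted p of 0.181, and -0.56 (SE 0.26) for SQLE with an adjusted p of 0.217. Neither of the 2 genes passed the threshold of 0.05 after Benjamini-Hochberg adjustment, in a comparison in which 448 of 13815 genes tested (3.24%) did. Without cow 3847 the count was 136 and HMGCS1 had -0.72 (adjusted p = 0.366). In the libraries outside batch B that fit called 0 genes, with 1780 at an unadjusted p under 0.05, and the log2 fold changes were -0.96 for HMGCS1 and -0.65 for SQLE. Taken one gene at a time, an exact two-sided sign-flip permutation test on the differences of each cow in log2(CPM + 1) gave a mean of -1.21 ± 1.42 (SD, n = 16) and p = 0.00479 for HMGCS1, and -0.70 ± 0.94 and exact p = 0.00693 for SQLE. These are 2 of 12 such tests and are not adjusted over genes. The cows ranged widely. In Fert- cow 419, HMGCS1 at EL was 0.0749 times its level at LP, and in Fert- cow 426 it was 3.72 times that level.

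Between EL and ML, HMGCS1 rose, with a log2 fold change of 1.15 (SE 0.36, adjusted p = 0.00969), in a comparison in which 5281 of 13815 genes (38.2%) passed the test and 18.1% passed it as higher. SQLE, at 0.54 (SE 0.26), did not pass (adjusted p = 0.0955). With each cow as a replicate block the values were 1.57 (adjusted p = 0.00157) for HMGCS1 and 0.70 for SQLE, which then passed at an adjusted p of 0.0228, with 41.8% of genes passing. Without batch B, SQLE also passed (0.75, adjusted p = 0.0325), and HMGCS1 had 1.43 (adjusted p = 0.00535). Without cow 3847, whose EL library stood apart, HMGCS1 had 1.14 (adjusted p = 0.0181) and SQLE 0.54 (adjusted p = 0.116). Without cow 1000 or without cow 33, the cows with the highest HMGCS1 at EL, SQLE passed, at adjusted p of 0.0376 and 0.0419. Both genes were higher at ML than at EL in the same 13 of 16 cows and lower in the other 3, which were the Fert- cows 426, 996 and 1000. The rise of HMGCS1 was largest in Fert+ cow 430, from 34.0 to 597 CPM. The change from LP to EL and that from EL to ML share the EL libraries and are not independent of each other.

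Across the whole interval neither gene passed between LP and ML. The log2 fold change from LP to ML was 0.33 (SE 0.35, 95% interval -0.38 to 1.04, adjusted p = 0.594) for HMGCS1 and -0.02 (SE 0.26, interval -0.54 to 0.49, adjusted p = 0.965) for SQLE, where 1721 of 13815 genes (12.5%) passed. Each gene was higher at ML than at LP in 9 cows and lower in 7, and the direction was the same for both genes in all 16.

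The changes of HMGCS1 in liver were larger than those of SQLE within most cows. HMGCS1 had the larger log2 change in 15 of 16 cows from LP to EL and in 13 of 16 from EL to ML. The ratio of HMGCS1 to SQLE CPM within a library, in which gene length cancels when time-points are compared, had a median of 1.98 at LP, 1.43 at EL and 2.71 at ML. It was lower at EL than at LP in 12 cows and higher at ML than at EL in all 16, by a median of 1.93-fold. At ML the ratio ran only from 1.79 to 3.49, whereas at EL it ran from 0.727 to 2.66.

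Over time, hepatocyte markers and stromal markers also moved in liver. Of the 8 hepatocyte markers, 4 were lower at EL than at LP (0.977% of all genes were called lower) and 4 were higher and 1 lower at ML than at EL (18.1% of all genes were called higher and 20.2% lower), and their summed level had medians of 158594 CPM at LP, 127504 at EL and 148918 at ML. Of 3 fibroblast and vessel markers, 1 was lower at EL than at LP and 2 were higher at ML than at EL, with summed medians of 121.9, 69.3 and 91.9 CPM. Summed skeletal muscle, adipocyte and erythroid markers had medians of at most 18.6 CPM at each time-point in liver. The part of these shifts in the results for HMGCS1 and SQLE was not tested.

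When the contrast was taken within each genotype, from the same fit over 48 libraries, the rise of HMGCS1 from EL to ML passed in Fert+ cows only. In Fert+ cows the log2 fold change was 1.65 (SE 0.51, adjusted p = 0.0144, with 28.2% of genes passing), and HMGCS1 and SQLE were both higher at ML in 8 of 8 cows. In Fert- cows it was 0.66 (SE 0.50, adjusted p = 0.447, with 7.77% of genes passing), and both genes were higher in 5 of 8. SQLE had 0.88 (SE 0.37, adjusted p = 0.0642) in Fert+ cows, which passed with each cow as a replicate block (1.18, adjusted p = 0.0115, with 32.6% of genes passing), without batch B (1.31, adjusted p = 0.0230) and by DESeq2 (0.88, adjusted p = 0.0463), and 0.19 (SE 0.36, adjusted p = 0.805) in Fert- cows. The difference between the genotypes over time was not shown. The test of the interaction of genotype and time-point in liver gave an adjusted p of 0.869 for each gene, and 0 of 13815 genes (0%) passed it, with 912 at an unadjusted p under 0.05 (1067 with the replicate block).

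At single time-points, both genes had higher values in Fert+ than in Fert- liver at ML, without passing the test over all genes. At ML, HMGCS1 ran from 469 to 1227 CPM in Fert+ cows (median 712 CPM) and from 143 to 697 CPM in Fert- cows (median 356 CPM). All 8 Fert+ cows were above the Fert- median, 6 Fert- cows were below the lowest Fert+ cow, and the groups overlapped. SQLE ran from 205 to 379 CPM (median 237 CPM) in Fert+ and from 56.5 to 288 CPM (median 123 CPM) in Fert- cows, also with 8 Fert+ cows above the Fert- median and with overlap. The log2 difference was 1.09 (SE 0.29, adjusted p = 0.224) for HMGCS1 and 0.83 (SE 0.26, adjusted p = 0.270) for SQLE. edgeR's quasi-likelihood test called 0 of 13235 genes (0%) in this comparison, and 1640 had an unadjusted p under 0.05. An exact two-sided permutation test over all splits of the 16 cows into 8 and 8 gave p = 0.00202 for HMGCS1 and p = 0.00653 for SQLE, unadjusted and 2 of 12 such tests. The DESeq2 Wald test called 77 of 11952 genes (0.644%), HMGCS1 among them (adjusted p = 0.0275) and SQLE not (0.0814), and the edgeR exact test with 1 common dispersion, taken for the study's test since its methods name edgeR and the common dispersion only, called 279 genes (2.11%), both genes among them (adjusted p = 5.95e-06 and 0.00238). Both genes were named by the study for this comparison of these samples, so that their direction here is not independent evidence.

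At LP and EL the differences between genotypes in liver were smaller than their SE. For HMGCS1 in liver the log2 difference was -0.02 (SE 0.40, adjusted p = 0.998) at LP and 0.11 (SE 0.65, adjusted p = 0.957) at EL, and for SQLE -0.01 (SE 0.30, adjusted p = 0.999) and 0.13 (SE 0.44, adjusted p = 0.910). No gene of 12872 at LP or of 13047 at EL (0% each) passed the quasi-likelihood test, with 842 and 1530 at an unadjusted p under 0.05 and with 306 (2.38%) and 301 (2.31%) calls by the test with 1 common dispersion. The intervals at EL were wide, from -1.25 to 1.47 for HMGCS1, and the sign of both genes at EL turned without batch B, to -0.58 and -0.37.

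From cow to cow, HMGCS1 and SQLE moved together in liver at every time-point. Across 16 cows Pearson's r on log2(CPM + 1) was 0.933 at LP and again 0.933 at EL, and 0.968 at ML, with Spearman's rho of 0.932, 0.950 and 0.962. For r and for rho at each time-point the permutation p was 1e-05, the smallest that 100000 permutations can give (adjusted p = 2e-05 over the 6 relations of this kind). Leaving out the 2 cows farthest from the median HMGCS1 gave 0.906, 0.901 and 0.957, and leaving out batch B gave 0.946, 0.906 and 0.959. Within Fert+ cows r was 0.954, 0.937 and 0.934, and within Fert- cows 0.964, 0.939 and 0.953, with the largest exact permutation p of the 6 at 0.00154. The slope was below 1 each time. A cow with a difference of 1 in log2 HMGCS1 from another differed in log2 SQLE by 0.67 at LP, 0.67 at EL and 0.82 at ML. Library total, which both values share, correlated with HMGCS1 at r = -0.399, -0.402 and 0.338 at the 3 time-points. No adjusted p was under 0.503 over 72 relations of either gene with library totals and summed markers. In liver the largest r were with summed adipocyte markers at LP (median 2.61 CPM), 0.543 for HMGCS1 and 0.562 for SQLE (unadjusted permutation p = 0.0304 and 0.0254). Summed hepatocyte markers at ML had 0.460 and 0.484 (unadjusted permutation p = 0.0726 and 0.0577). The part of these markers in the covariation was not tested.

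**Figure D2:**
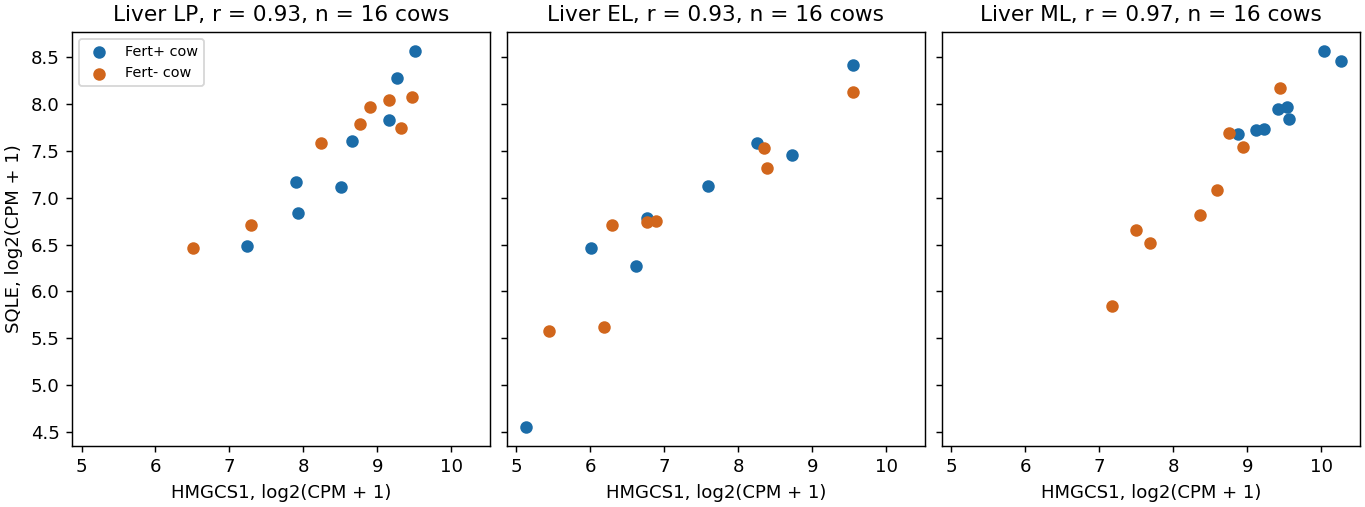
HMGCS1 (x axis) against SQLE (y axis) in liver, both as log2(CPM + 1), with a point for each of 16 cows in a panel for each time-point, Fert+ in blue and Fert- in orange. The points lie along a line at LP (r = 0.933), EL (r = 0.933) and ML (r = 0.968), and the span along it is widest at EL.

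Over the 16 cows, no relation between a cow's level at a time-point and its level at another passed after adjustment. In liver the correlation of HMGCS1 between LP and EL was r = 0.281 (rho = 0.309, permutation p = 0.289 and 0.242), between EL and ML r = -0.099 (rho = -0.138, p = 0.714 and 0.611) and between LP and ML r = 0.014 (rho = -0.162, p = 0.959 and 0.545). For SQLE the values were r = 0.409 (rho = 0.391, p = 0.115 and 0.132), r = 0.119 (rho = -0.029, p = 0.661 and 0.918) and r = -0.046 (rho = -0.026, p = 0.867 and 0.925). No adjusted p over the 12 relations of this kind in both tissues was under 0.258. Without the 2 cows farthest from the median, r for HMGCS1 was 0.391, -0.257 and -0.269. Without batch B, r for SQLE between EL and ML was -0.729 over 11 cows (permutation p = 0.0122, adjusted p = 0.146), and that for HMGCS1 was -0.661 (permutation p = 0.0283, adjusted p = 0.1699). Within the 8 Fert+ cows the correlation between LP and EL was 0.777 for HMGCS1 (exact permutation p = 0.0256) and 0.818 for SQLE (exact permutation p = 0.00888), and within the 8 Fert- cows it was -0.106 and -0.199 (exact permutation p = 0.796 and 0.648). Adjusted over the 24 relations within a genotype, the lowest p of the liver relations was 0.107, and the difference between the genotypes was not tested. Cow 1000 was an example. Its liver HMGCS1 was 706 CPM at LP and 745 CPM at EL, the highest Fert- value both times, and 328 CPM at ML.

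Other enzymes of sterol synthesis followed the same cows. The library variation that remained after group means (6 of genotype and time-point) were subtracted was compared between HMGCS1, SQLE and the other 13813 liver genes tested, over 48 libraries of 16 cows, as a description. Genes were ranked by their mean r with HMGCS1 and SQLE, whose median over all genes was -0.011. DHCR7, which makes cholesterol in the last step of its branch, was at rank 5 (mean r = 0.879), SC4MOL, a methyl oxidase of sterols (MSMO1), at rank 11 (0.831) and SC5DL, a sterol desaturase, at rank 24 (0.657). The study's lists, from which names were taken, gave names to 1880 of the 13813 genes, and the gene most like the pair, ENSBTAG00000001992 (mean r = 0.958), and the third, ENSBTAG00000012059 (0.911), were not among them. In all 14 genes had a mean r over 0.8 and 67 over 0.5. At the other end the lowest values were -0.613, for a gene without a name, and -0.608 for HOP.

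Genes that use or remove sterol were less like the pair. In liver CYP7A1, the rate-limiting enzyme of bile acid synthesis, had a mean r of 0.370 (rank 300) and CYP8B1, which sets the share of cholic acid, 0.323 (rank 516). CYP27A1, a mitochondrial sterol hydroxylase, had 0.075 and CH25H, which makes a hydroxycholesterol, -0.338. ACAT1, of ketone body metabolism, had 0.222 (rank 1388).

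Of the 18 symbols kept in the sterol synthesis list, 5 had an identifier and were followed, namely HMGCS1, SQLE, SC4MOL, SC5DL and DHCR7. Identifiers came only from the study's gene lists, made on these samples. Counts over the 5 therefore do not describe the pathway. From EL to ML in liver 4 of the 5 passed the test as higher and 0 as lower, with a median log2 fold change of 0.75, against a median of -0.01 over all genes tested and 18.1% of them called higher. They were HMGCS1, SC4MOL (0.75, SE 0.25, adjusted p = 0.0176), SC5DL (0.53, SE 0.15, adjusted p = 0.00657) and DHCR7 (0.87, SE 0.27, adjusted p = 0.0108). SQLE was the fifth. From LP to EL none of the 5 passed (4 had an unadjusted p under 0.05, as did 2716 of all 13815 genes), all had negative estimates, and the median was -0.56. With the replicate block 0 of the 5 passed as lower from LP to EL (1.71% of all genes) and all 5 as higher from EL to ML (21.5% of all genes). Between the genotypes at ML in liver all 5 had positive estimates, from 0.36 (SC4MOL) to 1.09 (HMGCS1) with a median of 0.69, and none passed, with adjusted p between 0.224 and 0.577 (4 had an unadjusted p under 0.05, as did 1640 of all 13235 genes). The study named DHCR7 as well as HMGCS1 and SQLE for that comparison, on these samples, so that the direction of these genes is not independent evidence. In liver the 5 genes also varied together between cows, so that their shared direction is not 5 separate observations.

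Among the other genes of the pathway in liver, CYP7A1 rose from EL to ML (log2 fold change 1.22, SE 0.43, adjusted p = 0.0237) and so did CYP27A1 (0.38, SE 0.13, adjusted p = 0.0154). These were 2 of 4 genes of sterol removal, where 18.1% of all genes rose. The 4 were those with an identifier among 10 symbols of that list. ACAT1 did not pass in any of the 3 time contrasts in liver, with -0.19 (SE 0.12, adjusted p = 0.392) from LP to EL and 0.16 (SE 0.12, adjusted p = 0.300) from EL to ML.

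**Figure D3:**
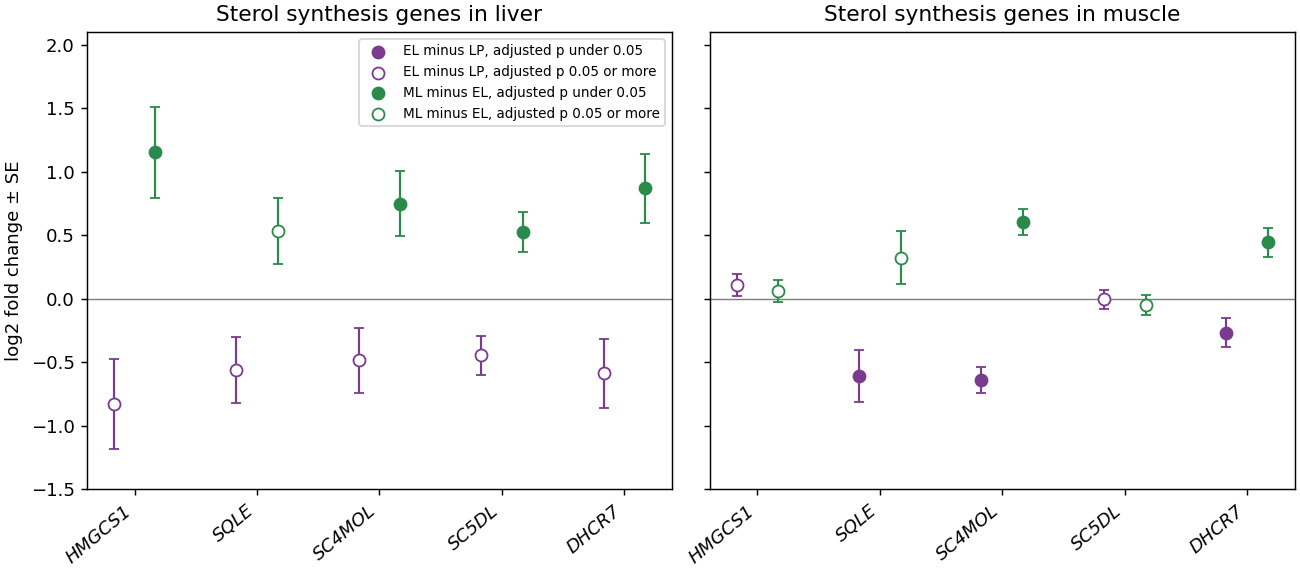
Log2 fold changes with SE (y axis) of 5 sterol synthesis genes in pathway order (x axis), from LP to EL in purple and from EL to ML in green, in liver and muscle, from the fit over 48 libraries of a tissue. Filled points have an adjusted p under 0.05. In liver all 5 were negative from LP to EL and positive from EL to ML, and in muscle SQLE, SC4MOL and DHCR7 lay below 0 from LP to EL while HMGCS1 (0.11) and SC5DL (-0.0037) lay near it.

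In muscle HMGCS1 was low and even, and SQLE rested on few reads and fell from LP to EL. HMGCS1 ran from 13.2 to 20.1 CPM at LP (median 15.5 CPM), from 11.5 to 27.6 CPM at EL (median 16.4 CPM) and from 14.8 to 20.9 CPM at ML (median 17.5 CPM), with a CV of 11.7%, 25.6% and 11.3%. These levels rest on 200 to 635 read pairs a library. SQLE ran from 1.09 to 5.52 CPM at LP (median 2.02 CPM), from 0.612 to 3.53 CPM at EL (median 1.19 CPM) and from 0.799 to 2.82 CPM at ML (median 1.71 CPM), on 10 to 96 read pairs a library, which limits its precision. The ranges of both genes overlapped between all time-points.

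**Figure D4:**
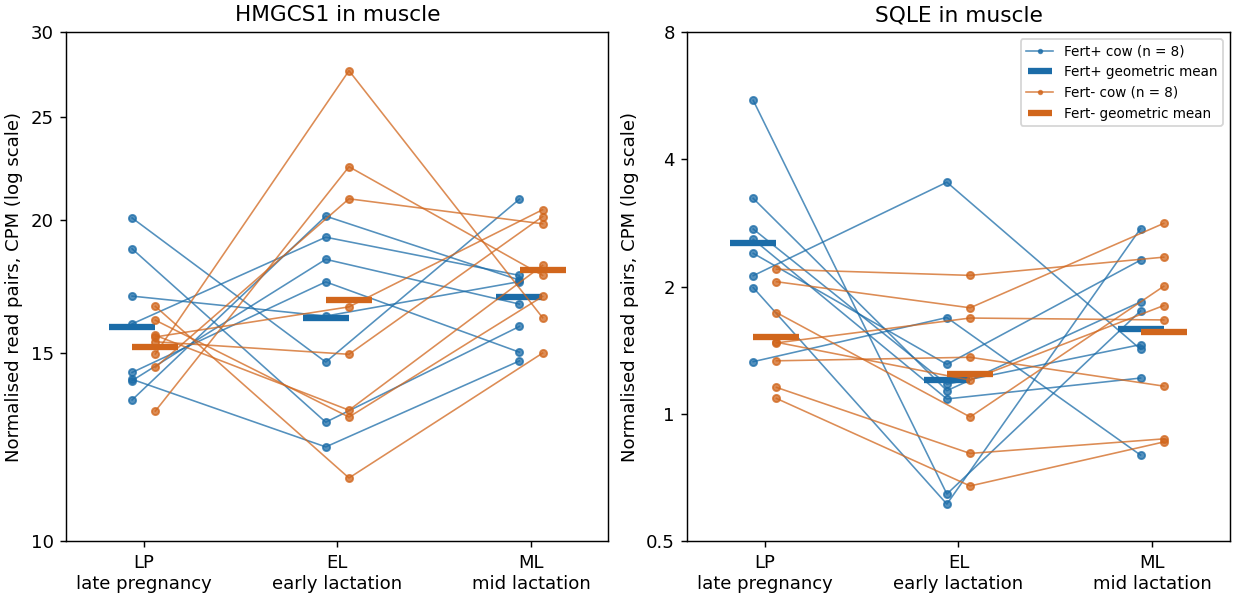
Normalised read pairs of HMGCS1 and SQLE in muscle (y axis, CPM, log scale) at LP, EL and ML (x axis), with a line for each cow, 8 Fert+ in blue and 8 Fert- in orange, and geometric means of a genotype as bars. HMGCS1 lies between 11.5 and 27.6 CPM throughout, and SQLE was lower at EL than at LP in 12 of 16 cows.

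Muscle SQLE had a log2 fold change of -0.61 (SE 0.21, adjusted p = 0.0118) from LP to EL, in a comparison in which 6828 of 12675 genes (53.9%) passed and 24.8% passed as lower. It was lower in 12 of 16 cows. The exact two-sided sign-flip permutation test on log2(CPM + 1) gave -0.41 ± 0.60 (SD, n = 16) and p = 0.0107. The call rested on Fert+ cow 430, which had the highest value at LP, 5.52 CPM, and 0.646 CPM at EL. Without that cow the log2 fold change was -0.45 (adjusted p = 0.0580). In Fert+ cows it was -0.97 (SE 0.29, adjusted p = 0.00823) and in Fert- cows -0.25 (SE 0.30, adjusted p = 0.521), where 35.1% and 40.4% of genes passed, and the interaction of genotype and time-point in muscle had an adjusted p of 0.841 (0 of 12675 genes, 0%, passed it, and 857 had an unadjusted p under 0.05). From EL to ML, SQLE had 0.32 (SE 0.21, adjusted p = 0.179), and passed only when cow 3847 was left out (0.52, adjusted p = 0.0237). From LP to ML it had -0.28 (SE 0.21, adjusted p = 0.474).

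Muscle HMGCS1 passed in none of the time contrasts. The log2 fold change was 0.11 (SE 0.09, interval -0.07 to 0.29, adjusted p = 0.314) from LP to EL, 0.06 (SE 0.09, interval -0.12 to 0.24, adjusted p = 0.559) from EL to ML, where 59.4% of genes passed, and 0.17 (SE 0.09, interval -0.01 to 0.35, adjusted p = 0.284) from LP to ML, where 6.08% of genes passed (9.39% with the replicate block). In single cows it was higher at ML than at LP in 14 of 16, by 0.16 ± 0.19 in log2(CPM + 1) (SD, n = 16, exact sign-flip permutation p = 0.00653, unadjusted and 1 of the 12 tests). HMGCS1 and SQLE of muscle went opposite ways from LP to EL in 8 of 16 cows, where in liver 2 of 16 did so.

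The muscle biopsies themselves changed at EL. The 9 skeletal muscle markers summed to between 131901 and 213516 CPM at LP, between 22045 and 191454 CPM at EL and between 186834 and 264210 CPM at ML, and 8 of the 9 were lower at EL than at LP (24.8% of all genes) and higher at ML than at EL (28.5% of all genes). At EL the summed muscle markers had a median of 106419 CPM in Fert+ cows (47921 to 191454 CPM). In Fert- cows the median was 57787 CPM (22045 to 97394 CPM). Of 3 fibroblast and vessel markers 1 was higher (29.1% of all genes) and 2 were lower at EL than at LP. The 3 adipocyte markers summed to a median of 6.17 CPM at LP, 6.07 at EL and 15.2 at ML, where the range was 3.43 to 72.9 CPM, and 1 of the 3, ADIPOQ, was lower at EL than at LP and higher at ML than at EL. Hepatocyte markers summed to a median of 2.19 CPM at LP, 1.81 at EL and 11.5 at ML, and 5 of the 5 tested were higher at ML than at EL. The part of these shifts in the values of SQLE and HMGCS1 was not tested.

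Of the 5 sterol synthesis genes in muscle, 3 fell from LP to EL (24.8% of all genes fell and 29.1% rose), namely SQLE, SC4MOL (-0.64, SE 0.10) and DHCR7 (-0.27, SE 0.12, adjusted p = 0.0465), and 0 rose. From EL to ML (28.5% of all genes rose, and 3923 of 12675 fell) 2 rose, namely SC4MOL (0.61, SE 0.10) and DHCR7 (0.45, SE 0.12), and 0 fell. The medians of the 5 were -0.27 and 0.32, against 0.02 and -0.0016 over all genes tested. ACAT1 fell by 0.75 on the log2 scale from LP to EL (SE 0.10) and rose by 0.83 from EL to ML (SE 0.10).

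In muscle neither gene passed between genotypes by the fit over all genes. The largest difference was SQLE at LP. It ran from 1.33 to 5.52 CPM in Fert+ cows (median 2.49 CPM) and from 1.09 to 2.20 CPM in Fert- cows (median 1.48 CPM), with 5 Fert+ cows above the highest Fert- cow and overlap of the groups. The log2 difference was 0.80 (SE 0.24, adjusted p = 0.506), and the exact permutation test gave p = 0.00746, unadjusted and 1 of 12. No gene of 11954 (0%) passed the quasi-likelihood test, 800 had an unadjusted p under 0.05, and the test with 1 common dispersion called 214 genes (1.79%), SQLE among them (adjusted p = 0.00720). DESeq2 called 27 (0.235%), without SQLE (adjusted p = 0.189). The study lists SQLE for this comparison, on these samples. At EL and ML the log2 difference of muscle SQLE was 0.08 (SE 0.33) and -0.01 (SE 0.27), and that of HMGCS1 lay between -0.10 and 0.06 at the 3 time-points. The quasi-likelihood test called 1 of 12035 genes (0.00831%) at EL and 0 of 12001 (0%) at ML, with 1426 and 918 at an unadjusted p under 0.05.

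In muscle the correlation of HMGCS1 and SQLE between cows did not pass at any time-point. Pearson's r was 0.402 at LP (permutation p = 0.122, adjusted p = 0.183), 0.309 at EL (p = 0.249, adjusted p = 0.299) and -0.021 at ML (p = 0.938, adjusted p = 0.938), with rho of 0.147, 0.359 and -0.044 (permutation p = 0.583, 0.174 and 0.874). The value at LP rested on the 2 cows with the farthest HMGCS1, 430 and 3434, and was -0.119 without them. Over the 48 muscle libraries, after the same subtraction, r between the genes was 0.236 (0.933 in liver), and HMGCS1 ranked 1522 among the genes most like SQLE. Of the other sterol synthesis genes in muscle, SC4MOL had r = 0.568 with SQLE and 0.123 with HMGCS1, SC5DL had 0.0028 and 0.340, and DHCR7 had -0.437 and -0.240 (rank 12302 of 12673 by mean r). The 3 genes thus differed in the sign and size of their relation to the pair. Muscle SQLE rests on 10 to 96 read pairs a library, and liver SQLE on 605 to 10238. Its counting error is larger in muscle, and the part of this in the lower r was not tested. Absence of a relation in muscle is therefore not shown. None of the 8 muscle genes most like the pair, with mean r from 0.479 to 0.512, had a name. Between time-points, muscle HMGCS1 at LP and EL had r = -0.492 (rho = -0.574, permutation p = 0.0512 and 0.0215, adjusted p = 0.50 and 0.258), and muscle SQLE at LP and ML r = 0.399 (rho = 0.474, permutation p = 0.125 and 0.0662, adjusted p = 0.50 and 0.397).

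Within the 8 Fert- cows muscle SQLE at LP and at ML was correlated, on few read pairs and in a family of tests adjusted only after seeing the data. Pearson's r was 0.951 (exact permutation p = 0.000719, adjusted p = 0.0173 over the 24 relations between time-points within a genotype) and rho was 0.976 (exact permutation p = 0.000397, adjusted p = 0.00952). Without the 2 cows farthest from the median at LP, 1000 and 829, r was 0.964 (exact permutation p = 0.00139, the smallest that 6 cows can give), and over the 6 cows with neither library in batch B it was 0.949. These subsets are drawn from the same 8 cows and are not independent evidence. The levels were low, with 18 to 38 read pairs a library at LP and 14 to 53 at ML. Counting error is large at such counts and limits how high an r can be relied on. Its part in this r was not tested. The relation was not run within a genotype on CPM, on log2(CPM + 0.1) or with RLE factors. A lasting level of each cow is therefore not shown. Cow 1000 had 2.20 CPM at LP and 2.35 CPM at ML, and cow 996 had 1.09 and 0.858 CPM. In the 8 Fert+ cows r was 0.281 (exact permutation p = 0.512), and the difference between the genotypes was not tested. Among the Fert- cows muscle SQLE had r = 0.807 between LP and EL (exact permutation p = 0.0183, adjusted p = 0.123) and 0.764 between EL and ML (exact permutation p = 0.0318, adjusted p = 0.127), and muscle HMGCS1 had -0.758 between LP and EL (exact permutation p = 0.0229, adjusted p = 0.123).

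Between liver and muscle of the same cow no relation passed. For HMGCS1 the correlation between the tissues was r = 0.133 at LP (rho = 0.141, permutation p = 0.625 and 0.602), 0.071 at EL (rho = 0.106, p = 0.793 and 0.699) and -0.313 at ML (rho = -0.435, p = 0.237 and 0.094). For SQLE it was -0.232 (rho = -0.074, p = 0.396 and 0.789), 0.050 (rho = -0.076, p = 0.852 and 0.779) and -0.173 (rho = -0.097, p = 0.521 and 0.721). No adjusted p over these 6 relations was under 0.562. Without the 2 cows farthest from the median in liver the values were 0.152, -0.011 and -0.526 for HMGCS1 and 0.009, -0.006 and 0.190 for SQLE.

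The time course of HMGCS1 differed between the tissues. In a fit over all 96 libraries, the change from LP to EL was lower in liver than in muscle by 0.96 on the log2 scale (SE 0.37, adjusted p = 0.0480, with 25.7% of 14613 genes passing), and the change from EL to ML was higher in liver by 1.14 (SE 0.37, adjusted p = 0.0119, with 35.9% passing). The first of these calls was lost with RLE factors (0.86 lower, adjusted p = 0.0801) and without a gene filter (0.87 lower, adjusted p = 0.107). With the replicate block the differences were -1.21 (adjusted p = 0.0115, with 29.1% of genes passing) and 1.54 (adjusted p = 0.000916, with 39.0% passing). Of the genes called from LP to EL, 1468 had the higher change in liver and 2285 the lower with TMM factors, and 2039 and 1648 with RLE factors. For SQLE the difference between tissues did not pass, with 0.02 (SE 0.31, interval -0.60 to 0.64, adjusted p = 1) from LP to EL and 0.27 (SE 0.36, interval -0.44 to 0.97, adjusted p = 0.603) from EL to ML.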

How the data were processed

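The deposited values are counts, the number of read pairs per Ensembl70 gene (UMD3.1) in each of 96 libraries, made by the authors with CASAVA 1.8, Trimmomatic, STAR, Samtools (proper pairs) and featureCounts from TruSeq v2 libraries, with no normalization and no pooling. Groups and cows come from the labels. The 96 count columns of 2 tables of the whole series carry no sample names and were left out.

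HMGCS1 and SQLE, the gene lists and the rule for named genes (both genes, list genes in pathway order, the 8 most and 3 least alike genes of a tissue) were chosen with earlier results of these data known. Symbols were known for 2161 identifiers, from the study's lists, and a leukocyte list of 6 had none. Some genes of the pathway lists are not reported here, and counts over the lists leave them out. Counts were tested on all genes kept by filterByExpr with edgeR 4.0.16 (TMM, robust quasi-likelihood, two-sided, Benjamini-Hochberg adjustment at 0.05) under R 4.3.3 and limma 3.58.1. Time contrasts came from 6 genotype and time groups over 48 libraries of a tissue, averaged over genotypes, genotype contrasts from 16 libraries, and tissue by time contrasts from 96. SE is the size of the log2 fold change over the root of F. Sign flips (65536), splits of 16 cows and correlations (100000 permutations, or all 40320 for 8 cows) were run in Python 3.11.15 with numpy 2.4.6 and scipy 1.17.1 on log2(CPM + 1). The scripts were tested on simulated data.

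Cow numbers pair libraries because they mark the same animal. After group means were removed, 39 of 48 liver and 42 of 48 muscle pairs of a cow correlated over 0.1 (medians 0.237 and 0.258). Each cow has 1 genotype, so that genotype contrasts have no block. Counting error sets the precision of low counts. The p-values of genotype contrasts, sign flips and correlations measure the spread between these cows. The main time and tissue by time fits had no cow term and treated the libraries of a cow as independent. Their p-values mix the spread between cows with that within a cow. Alternatives were the replicate block, RLE factors, no gene filter, no robust estimation, DESeq2 1.42.0, batch B left out, each cow left out, and for genotype 1 common dispersion and 48 libraries in a single fit. Correlations were also run on CPM, on log2(CPM + 0.1) and after removing genotype means. Adjustment over the 24 relations between time-points within a genotype was added after seeing the data.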

Additional observations from a re-analysis of the deposited data

Results flagged for a closer look

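There were 24 groups of 8 cows, 1 for each gene, tissue, time-point and genotype. In CPM without logs, 3 held a cow whose gap to the nearest other was over 0.526 of the range. This is Dixon's 95% limit for 8, which chance passes in about 1 in 20 groups of normally distributed values. CPM was skewed in the first group below, Fert- liver HMGCS1 at EL, with a mean of 228 CPM and a median of 113 CPM. The chance rate for such values was not tested, and the 3 cows are given as a description. Liver HMGCS1 of Fert- cow 1000 at EL was 745 CPM, against 335 CPM in the next cow. Muscle SQLE of Fert+ cow 430 at LP was 5.52 CPM, against 3.24 CPM in the next, and that of Fert+ cow 3847 at EL was 3.53 CPM, against 1.69 CPM.

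The change of HMGCS1 differed between liver and muscle in the fit over 96 libraries, which had no cow term. The log2 change in liver minus that in muscle was -0.96 from LP to EL (adjusted p = 0.0480) and 1.14 from EL to ML (adjusted p = 0.0119) by the edgeR quasi-likelihood test. The EL libraries are part of both.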

How the results depend on the processing

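The rise of liver HMGCS1 from EL to ML passed without any 1 of the 16 cows (0.99 to 1.44), and r between HMGCS1 and SQLE in liver kept its sign and call under every alternative run. With each cow as a replicate block, SQLE in liver had 0.70 from EL to ML (passing) and 0.038 from LP to ML, the liver minus muscle change of SQLE from LP to EL was -0.079 and 1190 genes passed in muscle from LP to ML; the block changed no other call of the pair averaged over genotypes. Without batch B, SQLE in liver had 0.75 (passing) and 0.093, the genotype difference in liver at EL was -0.58 for HMGCS1 and -0.37 for SQLE and no gene (0) passed in liver from LP to EL or between genotypes in muscle at EL. The first tissue difference of HMGCS1 was -0.86 with RLE factors and -0.87 with no gene filter, neither passing, and muscle SQLE at ML differed by 0.0026 between genotypes with no gene filter. At ML in liver, HMGCS1 passed between genotypes with 1 common dispersion (1.09) and by DESeq2 (1.09), SQLE with 1 common dispersion (0.83), and so did SQLE in muscle at LP (0.80). Leaving out single cows gave genotype differences at LP in liver of -0.19 to 0.12 (HMGCS1) and -0.21 to 0.10 (SQLE), at EL in liver of -0.40 to 0.67 and -0.19 to 0.39, at EL in muscle of -0.15 to 0.047 and -0.26 to 0.23, and for SQLE at ML in muscle of -0.15 to 0.15, none passing. It gave time changes of SQLE of 0.41 to 0.68 (liver, EL to ML), -0.13 to 0.081 (liver, LP to ML), -0.81 to -0.45 (muscle, LP to EL) and 0.19 to 0.52 (muscle, EL to ML).

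Correlations that turned sign were these. Between HMGCS1 and SQLE in muscle r was -0.119 at LP without the 2 farthest cows, and at ML 0.0043 with RLE factors and 0.106 without batch B. Between tissues, without those 2 cows, r was -0.011 for HMGCS1 at EL, and 0.0093, -0.0057 and 0.190 for SQLE at LP, EL and ML. For SQLE it was also -0.031 at EL on CPM and 0.022 at ML without batch B. Between time-points, liver HMGCS1 had 0.00040 (EL and ML, CPM) and, for LP and ML, -0.088 on CPM, -0.018 after removing genotype means, -0.030 without batch B and -0.269 without the 2 farthest cows. Liver SQLE had -0.729 (EL and ML, without batch B, adjusted permutation p = 0.146) and 0.019 (LP and ML, CPM), muscle HMGCS1 -0.022 (EL and ML, without batch B) and muscle SQLE 0.051 (LP and EL, without the 2 farthest cows), the choice of these cows being made after seeing the data. Calls over all genes depended on the test. Between genotypes in liver at LP, EL and ML they were 306, 301 and 279 with 1 common dispersion, and in muscle 214, 438 and 214. DESeq2 called 12 in liver at EL, 77 at ML, and 27, 157 and 14 in muscle, and 48 libraries in a single fit called 362 and 564 at EL. Leaving out single cows gave 0 to 4, 0 to 7 and 0 to 2 calls in muscle, 5 (without cow 164) to 1086 (without cow 426) in liver from LP to EL and 1012 (without cow 426) to 2095 (without cow 996) from LP to ML. From LP to EL in liver the count was 297 with no gene filter and 675 by DESeq2. The causes were not tested.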
